A study of Mus musculus with 24 samples.

Results

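The miR-130 and miR-301 family was followed in mouse muscle stem cells through 4 TaqMan real-time PCR assays, those of mmu-miR-130a, mmu-miR-130b, mmu-miR-301a and mmu-miR-301b (named below without the species prefix). The assays were taken by name, with star (passenger) strands left out, and are 4 of the 584 microRNA assays of the series. Muscle stem cells, which rest on the muscle fibre and divide after damage, came from male C57BL/6 mice aged 8 weeks. The 0 h group holds quiescent cells, and the other groups hold activated cells harvested 36, 60 and 72 h after muscle injury. The labels name no transgene, treatment other than injury, or cell sort. Each group has 3 replicates, which the design text calls technical, so p-values cover technical spread and not variation between mice. Whether a group came from pooled animals is not given in the sources used here.

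MicroRNAs are short RNAs that pair with messenger RNAs and lower their translation or stability. Pairing is led by the seed, bases 2 to 8 of the mature strand, so microRNAs with a common seed are grouped as a family with overlapping targets. The family of miR-130 and miR-301 has been studied in proliferation, in adipocyte differentiation, where miR-130 acts on the transcript of the receptor Pparg, and in vascular cells.

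The mature sequences show what the members share and where they differ, which bears on how far the assays can be read as separate. They are RefSeq sequences on GRCm38.p6, written 5′ to 3′, and capitals mark the seed. For miR-301b the hairpin is printed, with the same 7 bases in capitals. The assay names carry no strand suffix, so the match to the 3p strand rests on the name.
mmu-miR-130a-3p: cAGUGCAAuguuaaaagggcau
mmu-miR-130b-3p: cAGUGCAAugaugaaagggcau
mmu-miR-301a-3p: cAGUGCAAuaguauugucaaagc
Mir301b hairpin: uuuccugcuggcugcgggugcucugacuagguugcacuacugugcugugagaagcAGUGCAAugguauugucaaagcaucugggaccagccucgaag

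The 4 members fall into 2 close pairs by sequence. From miR-130a to miR-130b, 20 of 22 bases were identical, and the substitutions, counted from the 5′ end, were U11A and A13G. From miR-301a to the matching stretch of the Mir301b hairpin, 22 of 23 bases were identical, with A10G as the substitution. Between the pairs, miR-130b and the Mir301b hairpin differed at 10 of 22 positions. The seed AGUGCAA occurred in 7 of 1738 mature mouse sequences in the RefSeq table (0.403%). These include 3 of the 4 members, since that table has no mature entry for miR-301b. How far the assay of a member also reads its near-identical partner was not tested.

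The genes lie at 3 places in the genome. Mature miR-130a is at chr2:84741116-84741137 on the minus strand, and its hairpin gene overlaps no other listed gene. Mature miR-130b is at chr16:17124071-17124092 and the Mir301b hairpin at chr16:17124400-17124496, both on the minus strand. The 2 hairpins lie 257 bp apart, inside the bounds of the protein-coding gene 2610318N02Rik. Mature miR-301a is at chr11:87113054-87113076 on the plus strand, inside the bounds of Ska2, a gene for a protein of the spindle and kinetochore complex. The table gives gene bounds only, so exon or intron was not resolved.

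All 4 assays are on card A, 1 spot each, and were detected (threshold cycle, Ct, below 35) on 12 of 12 card A arrays. Over the whole series of 24 arrays, 181 to 212 of 375 assays were detected per array on card A and 89 to 120 of 209 on card B. Levels are given as the mean Ct of the 4 U6 small nuclear RNA spots of an array minus the Ct of the assay. This is a log2 scale on which a higher, less negative number means more RNA relative to U6. Levels are compared within an assay, not between assays, since PCR efficiency differs between assays. Calls required a change of 2-fold or more together with an adjusted p below 0.05 (limma, Benjamini-Hochberg).

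miR-301a rose against 0 h at every later time. Its levels at 0 h were -13.18, -12.79 and -12.90, and at 36 h they were -10.55, -10.48 and -10.51. At 60 h they were -10.59, -10.60 and -10.63, and at 72 h -11.33, -11.16 and -11.33. Every later array lay above every 0 h array, the 36 h and 60 h groups lay side by side without overlapping, and 72 h lay between them and 0 h. Against 0 h, miR-301a rose 5.43-fold at 36 h (log2 2.44 ± 0.0944 SE, n = 3 arrays per group, adjusted p = 3.922e-09, limma). The rise against 0 h was 5.09-fold at 60 h (adjusted p = 3.4e-09) and 3.21-fold at 72 h (adjusted p = 4.657e-08). In bulk samples such as these, fewer cells of a type and less RNA per cell cannot be told apart.

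miR-301b followed nearly the same course. Its levels at 0 h were -12.40, -12.24 and -12.52, and at 36 h they were -10.08, -10.08 and -10.19. At 60 h they were -9.81, -9.92 and -10.00, and at 72 h -10.54, -10.58 and -10.61. The 60 h arrays were the highest, the 0 h arrays the lowest, and no 2 of the 4 groups overlapped. Against 0 h, miR-301b rose 4.82-fold at 36 h (log2 2.27 ± 0.0794 SE, n = 3 arrays per group, adjusted p = 1.833e-09, limma). The rise was 5.58-fold at 60 h (adjusted p = 6.238e-10) and 3.51-fold at 72 h (adjusted p = 5.91e-09).

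miR-130b rose less than the miR-301 members. Its levels at 0 h were -13.84, -13.58 and -13.61, and at 36 h they were -12.36, -12.51 and -12.10. At 60 h they were -11.88, -12.26 and -11.97, and at 72 h -12.72, -12.54 and -12.62. All later arrays lay above the 0 h arrays, while the 36 h and 60 h groups overlapped. Against 0 h, miR-130b rose 2.56-fold at 36 h (log2 1.36 ± 0.13 SE, n = 3 arrays per group, adjusted p = 5.666e-06, limma), 3.11-fold at 60 h (adjusted p = 9.112e-07) and 2.07-fold at 72 h (adjusted p = 3.029e-05). The 36 h change was under the 2-fold limit with Y1 (0.70) and with the global mean (0.06, adjusted p = 0.6227). Without 0 h replicate 1 the 72 h change was 0.97 on the log2 scale, under the 2-fold limit.

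miR-130a had another course. Relative to U6 its highest levels were at 36 h and its lowest at 72 h, while with snoRNA202 and the global mean its highest were at 60 h. Its levels at 0 h were -9.61, -9.51 and -9.39, and at 36 h they were -8.51, -8.44 and -8.43. At 60 h they were -9.09, -9.15 and -9.11, and at 72 h -10.59, -10.34 and -10.59. No 2 of the 4 groups overlapped, and the order was 36 h, 60 h, 0 h, 72 h. Relative to U6, miR-130a rose 2.06-fold at 36 h against 0 h (log2 1.04 ± 0.0817 SE, n = 3 arrays per group, adjusted p = 1.103e-06, limma), a direction that turned with the global mean as normalizer (log2 -0.25). At 60 h it was 1.31-fold higher than at 0 h (log2 0.39, adjusted p = 0.001384), under the 2-fold limit. At 72 h it fell 2.002-fold below 0 h relative to U6 (log2 -1.001 ± 0.0817 SE, adjusted p = 9.427e-07), which lies at the limit, and its direction turned with snoRNA202 (log2 2.05) and the global mean (0.03). Without 0 h replicate 3, 72 h replicate 1 or 72 h replicate 3, the 72 h change was -0.94, -0.96 and -0.96, and without 0 h replicate 1 the 36 h change was 0.99, all under the 2-fold limit.

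**Figure D1:**
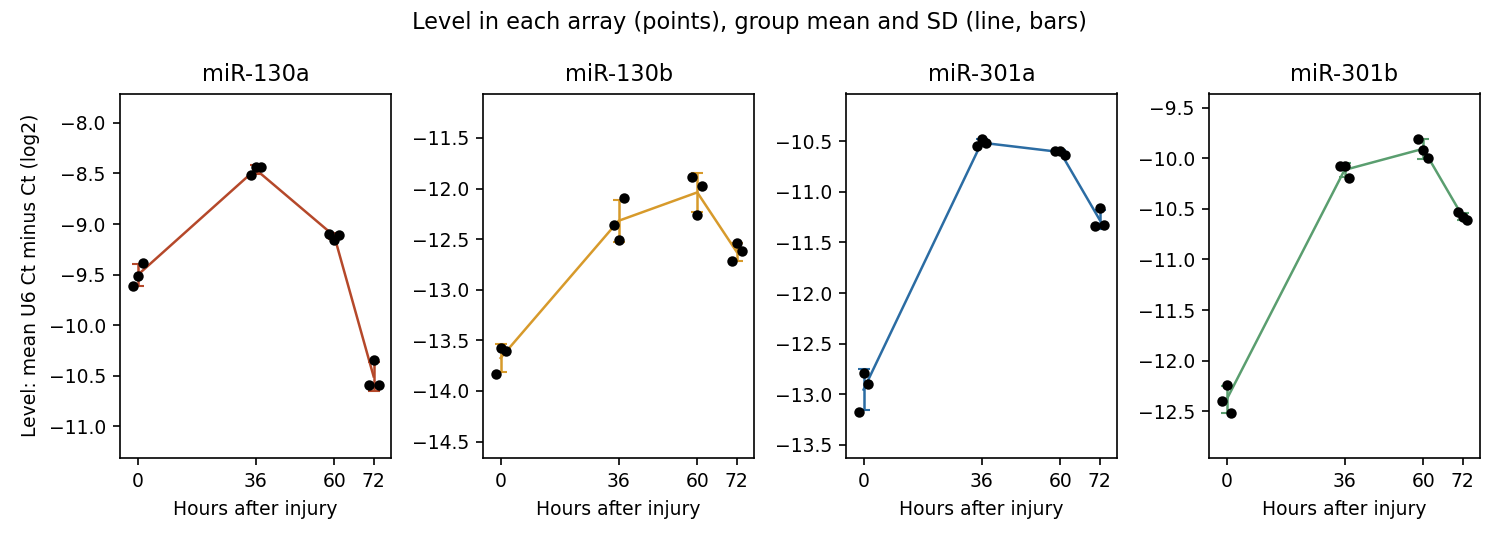
Level of each member relative to U6 (mean U6 Ct minus Ct, log2) against hours after injury, with 1 point per card A array, the group mean as a line and the SD as bars (3 arrays per group). The panels span the same range on the y axis with different offsets. At 72 h miR-130b, miR-301a and miR-301b stayed above their 0 h levels. The 72 h arrays of miR-130a (-10.59 to -10.34) lay below its 0 h arrays (-9.61 to -9.39) relative to U6. Its mean log2 change was 2.05 with snoRNA202 and near 0 with the global mean (0.03).

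Many assays moved in these cells, and the members' counts are read against that. At 36 h against 0 h, 4 of 4 members were called higher, beside 44.1% of the 272 assays tested (56.2% were called in either direction); the member count was 4 with snoRNA135 and snoRNA202, 2 with Y1 and 1 with the global mean. At 60 h, 3 of 4 were called higher and 0 lower, beside 28% called higher and 36.4% called lower (64.4% in all). At 72 h, 3 of 4 were called higher and 1 lower with U6, beside 20.9% and 45.9% (66.8% in all). With Y1, snoRNA135, snoRNA202 or the global mean, 0 members were called lower at 72 h. With snoRNA202, 4 of 4 were called higher at 60 h and at 72 h. Groups did not overlap for 4 of 4 members in each of these comparisons, beside 82.9%, 87.4% and 85.4% of assays detected on all arrays of both groups, so that lack of overlap was common in the series.

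The median log2 change over the 4 members for 36, 60 and 72 h was 1.81, 1.99 and 1.36, against 0.82, -0.37 and -0.77 over all tested assays. Relative to that median of all assays, miR-301a stood higher by 1.62, 2.72 and 2.45 at 36, 60 and 72 h. For miR-301b the values were 1.45, 2.85 and 2.58, and for miR-130b 0.54, 2.004 and 1.82. miR-130a stayed near the median of all assays at 36 h (0.23 above) and 72 h (-0.23), and was 0.75 above it at 60 h. That median pools both cards, while the members are on card A. Relative to the median of card A, miR-130a was higher by 0.14, 0.88 and 0.37 at 36, 60 and 72 h. At 72 h miR-130b, miR-301a and miR-301b were higher than it by 2.42, 3.05 and 3.18. By rank of log2 change from the highest at 72 h, miR-301b was at place 33 of 244, miR-301a at 36, miR-130b at 50 and miR-130a at 129.

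**Figure D2:**
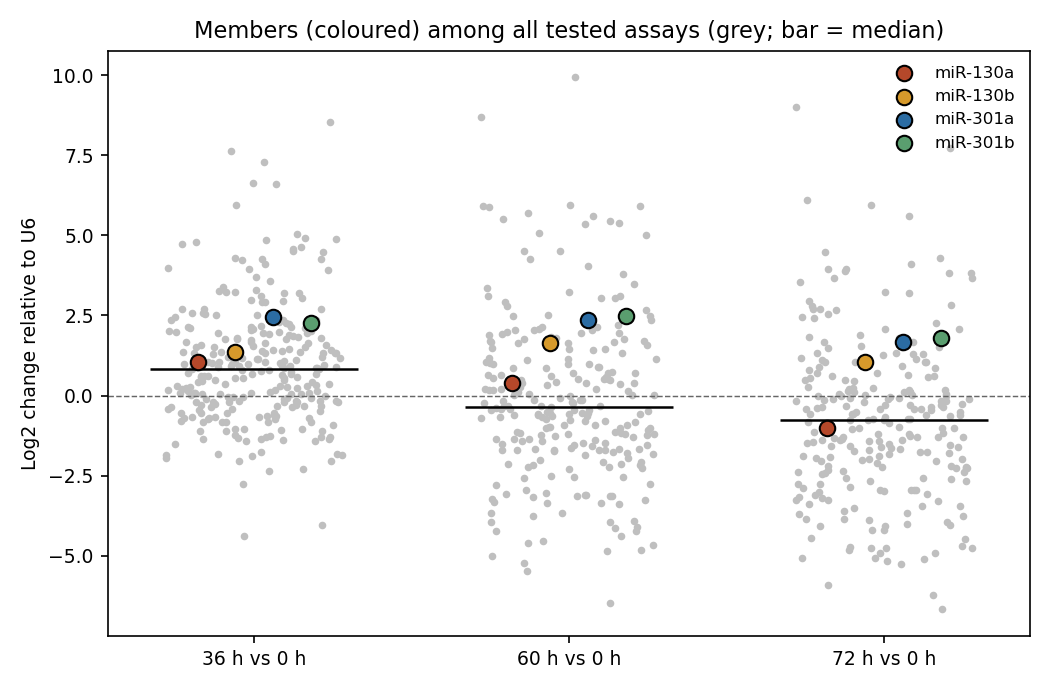
Log2 change relative to U6 against 0 h (y axis) of all tested assays (grey points) at 36, 60 and 72 h, with the 4 members coloured and the median of all assays as a bar. At 72 h miR-130b, miR-301a and miR-301b lay at 1.05, 1.68 and 1.81, above the median of -0.77, and miR-130a lay at -1.001 with U6, a value whose sign turned with snoRNA202 and the global mean.

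Between the later groups, the members called depended on the normalizer. With U6, snoRNA135 or Y1 miR-130a was called, and with snoRNA202 or the global mean the other 3 members. From 36 h to 60 h, 0 members were called higher and 0 lower at adjusted p below 0.05 and 2-fold (limma), beside 5.38% and 49.5% (54.8% in all) of the 279 assays tested; 3 of 4 members did not overlap between these groups, beside 88.3%. Of the 4, 2 had an adjusted p below 0.05 without reaching 2-fold, namely miR-130a with a log2 change of -0.66 (adjusted p = 3.538e-05, positive with snoRNA202 and the global mean) and miR-301b with 0.21 (adjusted p = 0.0337). The log2 changes of miR-130b (0.28, adjusted p = 0.07339) and miR-301a (-0.09, adjusted p = 0.3737, positive with each of the other 4 normalizers) did not pass. With snoRNA202 and with the global mean, 3 members were called higher at 60 h than at 36 h, namely miR-130b (1.81 and 1.73), miR-301a (1.44 and 1.36) and miR-301b (1.74 and 1.66).

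From 36 h to 72 h, miR-130a fell 4.13-fold relative to U6 (log2 -2.05 ± 0.0817 SE, adjusted p = 2.86e-09, limma). It was the 1 member called lower, beside 69.3% of 270 assays (73.3% in either direction). This fall was also called with snoRNA135 (-1.40) and Y1 (-1.07), and its sign turned with snoRNA202 (0.12) and the global mean (0.28). The values of miR-301a (-0.76), miR-301b (-0.46) and miR-130b (-0.31, adjusted p = 0.05088) stayed under the 2-fold limit, and each turned positive with snoRNA202, Y1 and the global mean, those of miR-130b and miR-301b also with snoRNA135; with snoRNA202 and the global mean these 3 members were called higher at 72 h than at 36 h (1.41 to 2.02). From 60 h to 72 h, miR-130a fell 2.62-fold (log2 -1.39 ± 0.0817 SE, adjusted p = 2.234e-07), beside 35.8% of 265 assays called lower (36.6% in either direction), and its value stayed negative but under 2-fold with each of the other 4 normalizers. The values of miR-130b, miR-301a and miR-301b were -0.59, -0.67 and -0.67 with U6 and turned positive with the global mean, that of miR-130b also with snoRNA202. Groups did not overlap for 4 of 4 members in the 72 h comparisons with 36 h and with 60 h, beside 91% and 81.2% of assays.

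The choice of normalizer set much of the size of these changes. Relative to U6, the control RNA snoRNA202 had a log2 change on card A of -0.88, -2.40 and -3.05 for 36, 60 and 72 h against 0 h. For snoRNA135 the values were -0.22, -0.34 and -0.87, and for Y1 they were 0.65, 0.11 and -0.32. The control RNAs thus did not keep a constant ratio to each other. The median of all tested assays at 36 h was 0.82 with U6, 1.74 with snoRNA202, 1.05 with snoRNA135, 0.06 with Y1 and -0.36 with the global mean of assays. At 72 h it was -0.77, 2.04, -0.17, -1.04 and -0.10 in the same order.

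The split of called assays moved with it. At 36 h against 0 h, 120 assays were called higher and 33 lower with U6, 180 and 6 with snoRNA202, 75 and 68 with Y1, and 59 and 89 with the global mean. At 60 h the split was 70 and 91 with U6, 179 and 20 with snoRNA202, and 82 and 76 with snoRNA135. At 72 h it was 51 and 112 with U6, 166 and 24 with snoRNA202, 65 and 85 with snoRNA135, and 72 and 79 with the global mean. From 36 h to 60 h it was 15 and 138 with U6, 94 and 54 with snoRNA202, 46 and 99 with Y1, and 75 and 64 with the global mean. From 36 h to 72 h it was 11 and 187 with U6, 76 and 68 with the global mean, and 70 and 69 with snoRNA202. From 60 h to 72 h it was 2 and 95 with U6, 9 and 37 with snoRNA202, 8 and 51 with snoRNA135, and 25 and 17 with the global mean.

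Across the 5 normalizers, the increases of miR-301a, miR-301b and miR-130b at 60 h and 72 h against 0 h were called each time. The lowest values were 2.24 for miR-301a, 2.37 for miR-301b and 1.53 for miR-130b at 60 h (each with Y1). At 72 h the lowest were 1.68, 1.81 and 1.05 (each with U6), and the highest were 4.73, 4.86 and 4.10 (each with snoRNA202). At 36 h miR-301a was called with all 5, from 1.15 with the global mean to 3.32 with snoRNA202. The value of miR-301b at 36 h was 0.98 with the global mean, under the 2-fold limit, and that of miR-130b was 0.70 with Y1 and 0.06 with the global mean. miR-130a at 72 h ranged from -1.001 with U6 to 2.05 with snoRNA202, so its direction against 0 h was set by the normalizer.

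**Figure D3:**
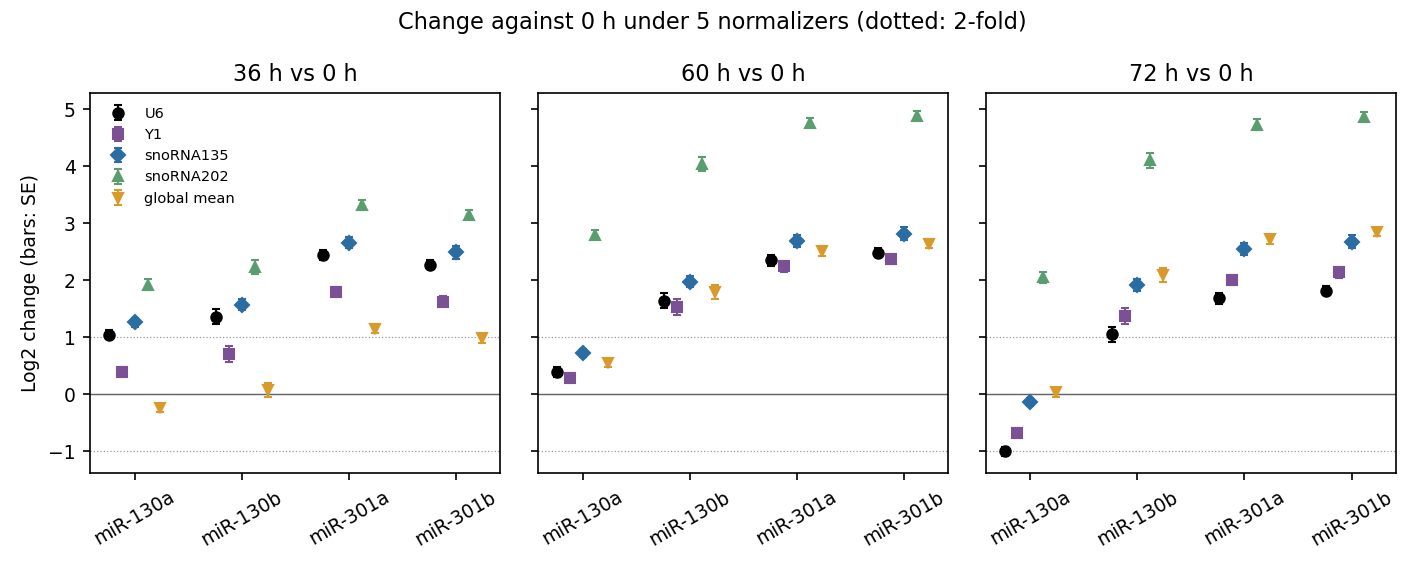
Log2 change of each member against 0 h (y axis, SE bars) with U6, Y1, snoRNA135, snoRNA202 or the global mean of assays as normalizer, at 36, 60 and 72 h, with dotted lines at 2-fold. At 60 h and 72 h all 5 values of miR-130b, miR-301a and miR-301b lay above the 2-fold line, whereas miR-130a at 72 h ran from -1.001 with U6 to 2.05 with snoRNA202.

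A normalizer drops out when members are compared on the same array, as the log2 difference of their Ct values. The difference itself has no meaning across assays, but its change between groups shows whether members moved apart. Of the 6 pairs, 5 differed between 0 h and the 9 later arrays (exact permutation test, two-sided, adjusted over the 6 pairs; the smallest p the 220 arrangements allow is 0.00455). Between single groups, 3 arrays against 3 cannot go below 0.1, so values are given there.

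miR-130a dropped against both miR-301 members. The difference miR-130a minus miR-301a was 3.57, 3.27 and 3.51 in the 0 h arrays and 2.04, 2.04 and 2.08 in those of 36 h. It was 1.497, 1.44 and 1.53 in the 60 h arrays and 0.75, 0.82 and 0.74 in those of 72 h. The 4 groups did not overlap, and each later time lay below the one before. The mean changes for 36, 60 and 72 h against 0 h were -1.40, -1.96 and -2.68 (0 h against later, adjusted exact permutation p = 0.00682; 4 groups, adjusted exact permutation p = 0.000195, from the smallest value that 369600 arrangements give, 6.49e-05). Against miR-301b the changes were -1.22, -2.09 and -2.81, with the same adjusted p-values.

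miR-130a also dropped against miR-130b, its closest relative by sequence, but later. The difference miR-130a minus miR-130b was 4.23, 4.06 and 4.22 in the 0 h arrays and 3.84, 4.07 and 3.66 in those of 36 h. It was 2.79, 3.10 and 2.86 in the 60 h arrays and 2.13, 2.20 and 2.03 in those of 72 h. The 0 h and 36 h groups overlapped, and the 60 h and 72 h groups lay below both. The mean changes for 36, 60 and 72 h against 0 h were -0.31, -1.25 and -2.05 (0 h against later, adjusted exact permutation p = 0.0382; 4 groups, 0.00026). Without any 1 of the 0 h replicates the first of these tests no longer passed (exact permutation p between 0.07273 and 0.09091).

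miR-130b dropped against both miR-301 members. The difference miR-130b minus miR-301b was -1.44, -1.33 and -1.09 in the 0 h arrays and -2.28, -2.43 and -1.90 in those of 36 h. It was -2.08, -2.34 and -1.97 in the 60 h arrays and -2.18, -1.96 and -2.01 in those of 72 h. All 9 later arrays lay below the 0 h arrays, and the later groups overlapped each other. Against miR-301a the mean change was -1.08 at 36 h, then -0.71 and -0.63 at 60 and 72 h, with all 72 h arrays (-1.39 to -1.29) above all 36 h arrays (-2.02 to -1.58). The mean change over the later groups was -0.84 against miR-301b and -0.81 against miR-301a (adjusted exact permutation p = 0.00682 for each). The genes of miR-130b and miR-301b are the ones that lie 257 bp apart on the same strand.

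miR-301a and miR-301b, whose genes lie on different chromosomes, showed the smallest shifts of the 6 pairs, and neither test passed. The difference miR-301a minus miR-301b was -0.57 ± 0.199, -0.40 ± 0.075, -0.70 ± 0.0776 and -0.70 ± 0.107 in the 0, 36, 60 and 72 h groups (SD, 3 arrays per group). The mean change over the later groups was -0.03 (adjusted exact permutation p = 0.804; 4 groups, 0.0657). By array, the 36 h values (-0.47, -0.40 and -0.32) lay above every value at 60 h (-0.79, -0.68 and -0.64) and 72 h (-0.80, -0.59 and -0.72), and the 0 h values (-0.78, -0.54 and -0.39) overlapped all later groups. Leaving out 1 array at a time moved the mean change between -0.14 and 0.06. A miss of the threshold does not show that the 2 move alike, and the 1-base difference between them is one that the assays were not tested on here.

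**Figure D4:**
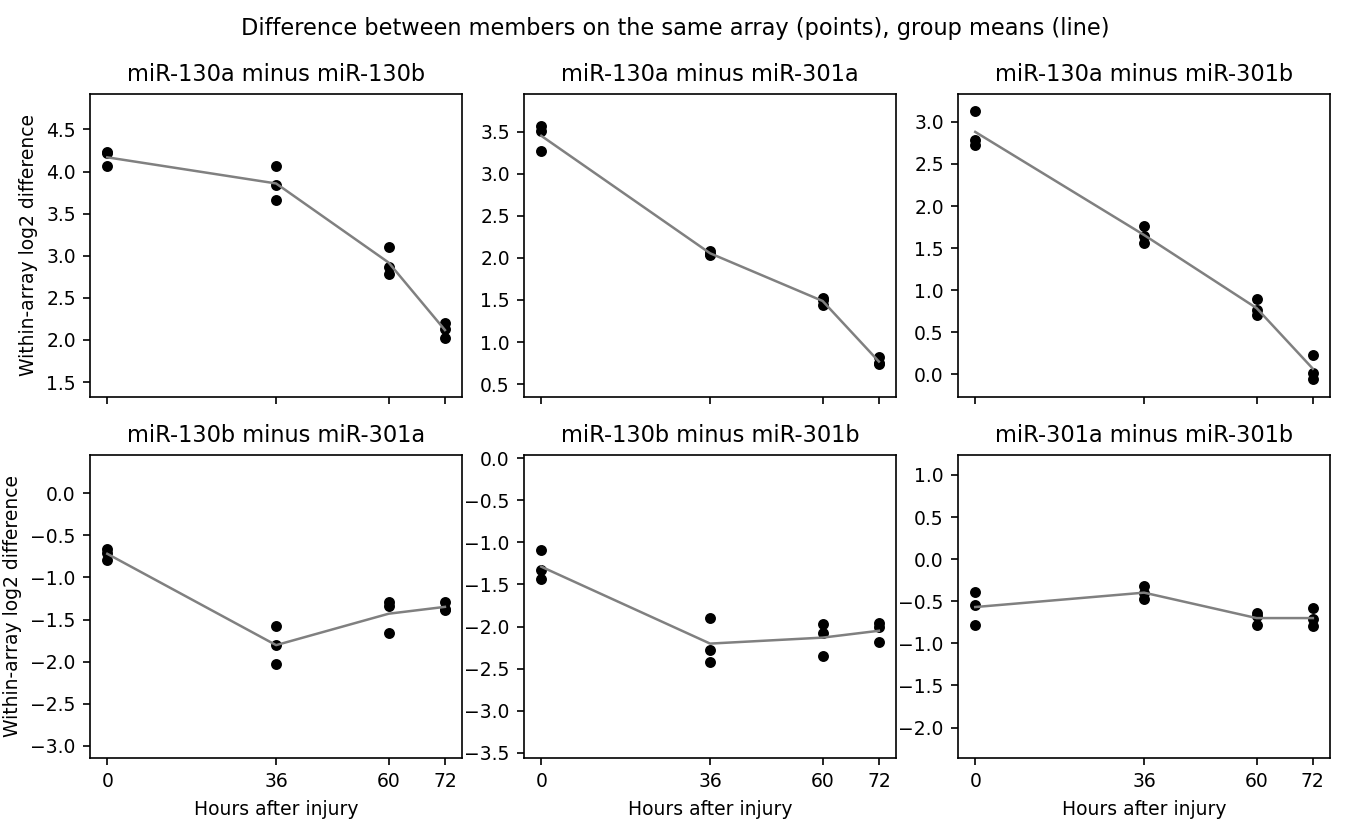
Log2 difference between members on the same array (y axis, first minus second, 1 point per card A array, line through group means) against hours after injury, for the 6 pairs. The difference of miR-130a minus miR-301a dropped from a mean of 3.45 at 0 h to 0.77 at 72 h, while miR-301a minus miR-301b stayed between means of -0.70 and -0.40.

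The passenger strand of miR-130b was assayed as miR-130b* on card B, in 2 spots per array. Its sequence has another seed and is printed to show that the assay reads the other arm of the hairpin.
mmu-miR-130b-5p: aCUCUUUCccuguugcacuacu

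miR-130b* was not detected at 0 h and was detected at every later time. At 0 h, 1 of 6 spots had a Ct (35.8) and 0 were below 35. At 36, 60 and 72 h, 6 of 6 spots were below 35 each time, with Ct from 28.5 to 29.5 over these groups. The levels relative to U6 were -14.50, -13.91 and -14.04 at 36 h, -13.45, -13.26 and -13.30 at 60 h, and -13.17, -13.32 and -13.31 at 72 h. With 0 h set to Ct 35, miR-130b* was at least 39.2-fold higher at 36 h, 68.9-fold at 60 h and 72.2-fold at 72 h, bounds that carry no test. At 36 h the bound was 19.2-fold with Y1, 49.9-fold with snoRNA135 and 84.5-fold with snoRNA202 in place of U6. The guide strand miR-130b rose 2.56-, 3.11- and 2.07-fold at the same times with U6. Why the strands differed in size of change was not tested. Relative to U6, the 60 h and 72 h values of miR-130b* exceeded 36 h by log2 0.81 and 0.88 (adjusted p = 0.002042 and 0.001036, limma), under 2-fold. The log2 bounds at 36, 60 and 72 h were 5.64, 6.51 and 6.52 with snoRNA135, where these steps also stayed under 2-fold. They were 4.26, 5.85 and 5.45 with Y1 and 6.40, 8.65 and 8.78 with snoRNA202, where both steps from 36 h exceeded 2-fold.

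Of the other RefSeq microRNAs with the seed, miR-130c, miR-6341, miR-6389 and miR-721, only miR-721 was matched to an assay here. It is printed because it shares the seed and differs in the rest of the sequence. Its gene lies inside the bounds of Cux1, at chr5:136375777-136375797 for the mature strand.
mmu-miR-721: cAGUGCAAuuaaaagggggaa

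With U6, miR-721 was not called higher at any time, and its calls with the other normalizers are not given here. Its card B levels relative to U6 were -16.05, -15.10 and -14.75 in the 0 h arrays and -15.80, -15.22 and -15.52 in those of 36 h. They were -16.56, -17.09 and -16.87 in the 60 h arrays and -15.80, -15.80 and -17.32 in those of 72 h. The replicates spread widely, and the 0 h group overlapped those at 36 h and 72 h. Relative to U6, the log2 change against 0 h was -0.22 at 36 h (adjusted p = 0.6643, limma). It was -1.54 at 60 h (adjusted p = 0.006679, limma, called lower) and -1.01 at 72 h (adjusted p = 0.05043, limma). On card B snoRNA202 changed by -1.11, -2.55 and -2.61 at 36, 60 and 72 h, a shift that would turn the sign of each miR-721 value.

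A further group of microRNAs has a seed that overlaps the family seed with a shift of 1 base, so that 6 of the 7 bases are shared. miR-19a and miR-19b share GUGCAA with it, and miR-148a, miR-148b and miR-152 share AGUGCA. They are shown because they can pair with partly the same sites.
mmu-miR-19a-3p: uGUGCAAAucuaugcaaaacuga
mmu-miR-148a-3p: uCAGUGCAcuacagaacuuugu

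Of these 5 microRNAs, 5 were called higher and 0 lower at 36 h against 0 h with U6, beside 44.1% and 12.1% of all tested assays. The counts were 3 and 1 at 60 h (beside 28% and 36.4%) and 3 and 1 at 72 h (beside 20.9% and 45.9%). Calls with the other normalizers were not counted for the lists of this paragraph. The median log2 change of the 5 was 2.56, 2.06 and 2.06, against 0.82, -0.37 and -0.77 over all assays. miR-19a, a member of the growth-associated cluster from miR-17 to miR-92a, rose by log2 4.87, 5.90 and 4.11 at 36, 60 and 72 h. miR-152 rose by log2 1.76 at 36 h and was called lower at 60 h (-1.25) and 72 h (-1.93) with U6, signs that the shift of snoRNA202 given above would turn. Of 12 microRNAs from that cluster and from its paralogous clusters, 10 were tested against 0 h. Of these, 8, 10 and 8 were called higher at 36, 60 and 72 h and 0 lower, beside the same shares of all assays. miR-106b, from a paralog cluster, rose by log2 2.53, 2.92 and 1.49, close to the values of the miR-301 members.

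Likeness of course was measured as the root mean square difference between the 3 log2 changes against 0 h, over 151 other card A assays detected on all 12 arrays, a description with no test. The assay nearest to miR-301a was miR-301b (0.15), followed by miR-34b-3p (0.31) and miR-106b (0.35). For miR-301b, miR-301a was followed by miR-106b (0.35) and miR-186 (0.37). The assay nearest to miR-130b was miR-186 (0.47), followed by miR-296-5p (0.48) and miR-222 (0.51), with miR-301a at place 14 and miR-301b at place 15. miR-130a was nearest to miR-101a (0.23), rno-miR-190b (0.25) and miR-16 (0.26), and its family members stood at places 62 (miR-130b), 95 (miR-301a) and 96 (miR-301b). Only miR-301a and miR-301b were thus each other's nearest assay within the family.

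Markers of muscle stem cells and of other cell types also moved over these times. Their calls, here and in the next paragraph, are with U6 and were not counted with the other normalizers. Of all tested assays, 44.1%, 28% and 20.9% were called higher at 36, 60 and 72 h against 0 h, and 12.1%, 36.4% and 45.9% lower. miR-489, a marker of quiescent muscle stem cells, fell at each time (log2 -1.40, -4.85 and -6.66 at 36, 60 and 72 h against 0 h). Of 4 muscle-enriched microRNAs, 3 were called higher at 36 h and 4 at 60 h and at 72 h. Of the 6 leukocyte markers, 5 were tested against 0 h, with 4 called higher and 0 lower at 36 h, 3 and 1 at 60 h, and 2 and 1 at 72 h; miR-142-5p was detected on 0 arrays at 0 h. miR-142-3p and miR-223 rose by log2 5.91 and 4.06 at 60 h and 5.61 and 3.81 at 72 h, whereas miR-150 fell (log2 -3.67 and -4.21). The summed level of the leukocyte markers on the log2 scale ran from -5.38 to -5.34, -3.72 to -3.65, -6.57 to -6.44 and -7.42 to -7.29 for 0, 36, 60 and 72 h. Such sums, here and below, add assays whose PCR efficiency may differ and leave out undetected ones. They are weighted to the assays with the lowest Ct and do not measure the amount of a cell type. Of the 6 leukocyte assays, 5 were detected on all 3 arrays at 0 h and 6 at 36 h.

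With U6, the 2 endothelial markers were called higher at 36 h (2 of 2, beside 44.1% of all assays). They were called lower at 60 h and 72 h (2 of 2 each, beside 36.4% and 45.9%). Their summed levels were -4.52 to -4.44, -2.29 to -2.28, -6.28 to -6.19 and -6.42 to -6.40 at 0, 36, 60 and 72 h. Of the 4 mesenchymal and smooth muscle markers, 3 were called higher at 36 h, and 3 lower at 60 h and at 72 h, beside the same shares. Their summed levels were -3.23 to -3.11, -2.76 to -2.70, -6.16 to -6.13 and -6.82 to -6.75 at these times. The erythroid marker miR-451 and the epithelial miR-200a, miR-200b, miR-200c and miR-205 were detected on 0 arrays at 0 h. Of the 5 epithelial markers, 1 (miR-203) was detected on all 3 arrays at 0 h. At 36 h 3 were, with miR-200c and miR-205 added, while miR-200a and miR-200b were detected on 0 arrays at any time. miR-451 was detected on all 3 arrays at 36 h (levels of -14.07 to -12.99) and at 60 h (-18.79 to -16.07). Relative to U6, the leukocyte, endothelial and mesenchymal sums were highest at 36 h and lay below 0 h at 60 h and 72 h. miR-130b, miR-301a and miR-301b lay above 0 h at these 2 times. With U6, miR-130a was also highest at 36 h and below 0 h at 72 h, but it lay above 0 h at 60 h (log2 0.39). That 60 h value was positive with each of the 5 normalizers, and with snoRNA202 and the global mean miR-130a was highest at 60 h. With the shift of snoRNA202 given above, the leukocyte and endothelial sums at 60 h and 72 h would lie above 0 h. The leukocyte sum went against most of its list at 60 h, where 3 of 5 tested markers were called higher. Their part in the members' changes was not tested.

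The authors' deposited table gives mean fold changes against day 0 for the same assays. For miR-130a, the authors' deposited table lists 2.07 at day 1.5, 1.31 at day 2.5 and 0.5003 at day 3.5. For miR-301a it lists 5.45, 5.11 and 3.21 in the authors' deposited table. Its last time point is named day 3.5, whereas the labels of the arrays give 72 h.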

How the data were processed

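RNA was reverse transcribed and run on TaqMan rodent microRNA cards A and B for 40 cycles, per the labels' protocols. Per the file headers, the authors deposited a threshold cycle (Ct) per spot, on an inverse log2 scale, and a table of mean fold changes (linear ratios) against day 0. No source used here gives the software or threshold behind them. From each array's Ct values a level was computed as the mean U6 Ct minus the Ct. An assay was detected with all spots below Ct 35 and tested with at least 2 detected replicates in both groups. Testing used R 4.3.3 with limma 3.58.1 (eBayes after lmFit and contrasts.fit), 1 fit per card over 12 arrays with no block, and Benjamini-Hochberg adjustment over both cards for each comparison. The fit was tested on simulated data. Pairs of members were compared by exact permutation tests. No 2 arrays were copies: the smallest median absolute Ct difference between 2 arrays was 0.0896 on card A. The number of arrays limits the precision. Of the deposited series tables, 75 per-sample columns were not used. Alternatives were 4 other normalizers, the U6 mean of the group, other detection limits, a replicate block, only the groups compared, a trended robust prior and leaving out replicates; Y1, and the control RNAs for the miR-130b* bound, were added after seeing the data. Named are the 4 members in every comparison, their star strands and seed relatives, the 5 assays nearest in course (those closest are printed), and the 2 to 4 largest changes of lists. miR-106b and miR-152 were named after their values were seen. The members and lists were chosen with earlier results of these data known.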

Additional observations from a re-analysis of the deposited data

Results flagged for a closer look

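miR-130a differed between times after injury by a test of the difference itself. Its level relative to U6 was lower at 72 h than at 36 h by a log2 value of -2.05, and lower at 72 h than at 60 h by -1.39 (adjusted p = 2.86e-09 and 2.234e-07, limma, 3 arrays per group, all 3 arrays at 72 h below all arrays of the other group). In these comparisons 69.3% and 35.8% of all tested assays were called lower, and groups did not overlap for 91% and 81.2%. The median log2 change was -1.82 and -0.75 over all assays, and -2.30 and -0.87 on card A. For 72 h against 36 h, miR-130a was at place 148 of 270 from the highest. The first change of miR-130a was also called lower with snoRNA135 (-1.40) and Y1 (-1.07). It turned to 0.12 with snoRNA202 and 0.28 with the global mean as normalizer. The second stayed negative but under 2-fold with snoRNA202 (-0.74), snoRNA135 (-0.86), the global mean (-0.51) and Y1 (-0.95).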

How the results depend on the processing

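Detection limits of Ct 32 and 40, undetected values at Ct 35, a fit on the 2 groups compared, a trended robust prior and the U6 mean of the group left the call (adjusted p with the 2-fold limit) of all 24 member changes as it was, although the adjusted p of miR-130b at 72 h against 36 h ranged from 0.03368 to 0.0617 over these; the normalizer changed calls. With snoRNA202, miR-130a was 2.79 (60 h against 0 h), 0.87 (60 h against 36 h), 2.05 (72 h against 0 h), 0.12 (72 h against 36 h) and -0.74 (72 h against 60 h). In the comparisons of 60 h with 36 h, 72 h with 36 h and 72 h with 60 h, snoRNA202 gave 1.81, 1.86 and 0.0568 for miR-130b. In the first 2 of these it gave 1.44 and 1.41 for miR-301a and 1.74 and 1.71 for miR-301b. With snoRNA135, miR-130a was -0.14 (72 h against 0 h) and -0.86 (72 h against 60 h), miR-301a 0.0295 (60 h against 36 h), and at 72 h against 36 h miR-130b was 0.34 and miR-301b 0.19. With the global mean, the 36 h change against 0 h was -0.25 for miR-130a, 0.065 for miR-130b and 0.98 for miR-301b, and miR-130a at 72 h was 0.0313. With it, 60 h against 36 h gave 0.79, 1.73, 1.36 and 1.66 for miR-130a, miR-130b, miR-301a and miR-301b, 72 h against 36 h gave 0.28, 2.02, 1.56 and 1.86, and 72 h against 60 h gave -0.51, 0.29, 0.21 and 0.21. With Y1, miR-130a was 0.39 (36 h) and -0.68 (72 h) against 0 h and -0.95 (72 h against 60 h), and miR-130b 0.70 (36 h against 0 h). At 72 h against 36 h, Y1 gave 0.67, 0.22 and 0.52 for miR-130b, miR-301a and miR-301b, and 0.45 for miR-301a at 60 h against 36 h. The cause was not tested.

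Leaving out 1 array at a time gave 0.99 to 1.10 (36 h) and -1.08 to -0.94 (72 h) for miR-130a against 0 h, 0.97 to 1.10 for miR-130b at 72 h, -1.34 to -1.09 for miR-130a minus miR-130b, and -0.14 to 0.0617 for miR-301a minus miR-301b (0.0617 without 0 h replicate 3). With the replicate number as a block, miR-130a at 36 h against 0 h was 1.04 and the calls were 154, 162 and 162 at 36, 60 and 72 h, against 153, 161 and 163; no member's call changed. The numbers pair no arrays by the labels, and same-numbered card A arrays correlated above 0.1 in 5 of 18 pairs and best with their own number in 14 of 36 cases.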
